A study of Mus musculus with 4 samples.

Results

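Cathepsins are proteases of the lysosome, and 10 of their genes were followed in the mouse mammary fat pad (MFP): Ctsb, Ctsc, Ctsd, Ctsh, Ctsk, Ctsl, Ctss and Ctsz, which are used in many tissues, and Ctsj and Ctsr, which are known from the rodent placenta. The genes were taken by symbol, each from its only row among the 55487 genes of the count table. They were selected on the comparison of aged with young MFP, with its results known, so their levels and fold changes in that comparison are a description and carry no test. All 10 passed the filter on low counts that 22485 genes passed, Ctsj and Ctsr through the aged samples alone.

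The study asked how the aged fat differs from young fat as the surroundings of a melanoma, and sequenced total RNA of the MFP itself. The samples were 2 aged ones, of 14 months, and 2 young ones, of 8 weeks, named biological replicates in the labels, which give the strain as c57b/6j and name no transgene or treatment, and the study used female mice. The pieces of tissue were lysed whole, so every library held RNA of all cell types of the fat pad, and fewer cells of a type cannot be told apart from less RNA per cell. Total counts ran from 68803304 to 98402403 per sample, and 3 counts, taken as the floor below which a gene was not told from 0, came to 0.0337 to 0.0407 CPM, that is, counts per library total, with libraries scaled by the TMM method of edgeR. Such floors cover counting error only.

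Cathepsins are made as inactive precursors, carry a mannose 6-phosphate tag to the lysosome and are cut to their active form at its acid pH. Most are papain-like cysteine proteases, while Ctsd encodes an aspartic protease, and cystatins and stefins block the cysteine cathepsins outside the lysosome. In fat, macrophages, stromal cells and adipocytes all make them.

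Ctsj and Ctsr lie on the minus strand of chromosome 13, Ctsj at 61000179 to 61005959 and Ctsr at 61159204 to 61164256 (GRCm38, GENCODE M21). Their promoters are shown because both genes were read only in the aged samples and the letters before their starts are alike. Each is the window of GRCm38.p6 from 250 bases before to 50 bases after the RefSeq start. It lies at chr13:61005876-61006175 for Ctsj and chr13:61164139-61164438 for Ctsr. Capitals mark runs of at least 8 bases that are identical and without gaps in the alignment of the pair, 118 bases in each.
Ctsj: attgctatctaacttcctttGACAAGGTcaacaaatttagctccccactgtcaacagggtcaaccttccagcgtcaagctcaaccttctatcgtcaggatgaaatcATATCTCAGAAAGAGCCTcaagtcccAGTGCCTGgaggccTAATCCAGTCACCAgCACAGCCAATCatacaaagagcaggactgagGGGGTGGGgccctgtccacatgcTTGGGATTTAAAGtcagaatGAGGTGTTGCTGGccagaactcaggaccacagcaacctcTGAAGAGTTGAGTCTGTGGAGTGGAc
Ctsr: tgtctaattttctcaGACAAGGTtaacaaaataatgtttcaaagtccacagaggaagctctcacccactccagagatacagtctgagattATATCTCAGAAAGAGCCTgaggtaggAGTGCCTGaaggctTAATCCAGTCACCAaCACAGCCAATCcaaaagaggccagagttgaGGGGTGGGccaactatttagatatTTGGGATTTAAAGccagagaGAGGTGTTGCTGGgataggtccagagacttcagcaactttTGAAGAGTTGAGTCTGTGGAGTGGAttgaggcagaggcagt

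In this alignment 213 of the 300 bases were identical, or 71%. Against the promoters of the neighbouring cathepsin genes Cts6 and Ctsq, the identity was 70% and 63.7% for Ctsj and 68.3% and 66.7% for Ctsr. The likeness was thus not particular to this pair. Against the promoter of Ctsl, the lysosomal member on the same chromosome, the identity was 54% for Ctsj and 49% for Ctsr. The letters CCAAT began 84 bases before the RefSeq start of Ctsj and 100 bases before that of Ctsr. TTTAAA, a variant of the TATA box, began 29 and 45 bases before. GENCODE M21 starts both genes further upstream, so by its bounds TTTAAA lies inside both genes and CCAAT before them. Counted on either strand, CCAAT was held by 8 of the 9 promoters of the protein-coding cathepsin genes of this cluster, against 37.4% of the 32851 promoters in the table, and TTTAAA by 7 of the 9 against 13.2%. These motifs were picked after the sequences had been seen, and a match is a description of letters, not of a site in use.

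The stretch around CCAAT, with these letters in capitals, is shown for the 4 cathepsin genes of the cluster that had any read, all on the minus strand: Ctsj at chr13:61005998-61006027, Ctsr at chr13:61164277-61164306, Cts6 at chr13:61203474-61203503 and Ctsq at chr13:61040687-61040716.
Ctsj: atccagtcaccagcacagCCAATcatacaa
Ctsr: atccagtcaccaacacagCCAATccaaaag
Cts6: atccagtcaccaacacagCCAATcagaaaa
Ctsq: atctagtcacccacacagCCAATcaaaagt

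Ctsj was counted 386 times in aged replicate 1, 721 times in aged replicate 2 and 0 times in both young samples. Ctsr was counted 289, 1040, 0 and 0 times in the same order. Both aged samples thus held at least 289 reads of each gene, and no read of either was found in the young samples at 77661766 and 68803304 total counts. In CPM, Ctsj stood at 4.72 and 8.10 in the aged samples and Ctsr at 3.53 and 11.7. Against the floor of 3 counts per young library, the mean CPM of the aged samples was at least 166-fold higher for Ctsj and at least 197-fold higher for Ctsr. With the lower aged library alone these bounds were 116-fold and 86.9-fold. Of the 55487 genes, 22786 had 0 counts in both young samples, and among these Ctsj and Ctsr were the 2 genes with at least 289 counts in both aged samples, while 11 genes had at least 10. In the opposite direction 0 genes were at 0 in both aged samples with at least 289 counts in both young ones. The cut of 289 is the lowest of the aged counts of Ctsj and Ctsr themselves, so both pass it by construction.

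Ctsr made up 42.8% of the reads of both genes in aged replicate 1 (exact 95% binomial interval 39.0 to 46.6) and 59.1% in aged replicate 2 (56.7 to 61.4). That is 0.749 and 1.44 reads of Ctsr per read of Ctsj. The intervals cover counting error only and treat reads as independent molecules, so they compare these libraries and not animals.

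The 2 genes could be told apart by their reads. Of the 1471 windows of 50 bases in the annotated transcripts of Ctsj and the 1365 of Ctsr, 0 occurred in a transcript of another gene. Their longest open reading frames, 1005 bases each, were 75.1% identical to each other, 64.6% (Ctsj) and 63.8% (Ctsr) identical to that of Ctsl, and 78% and 80.4% identical to that of Cts6. The closest relative by sequence was thus a gene with few reads.

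In the 771.9 kb between Ctsll3 and Cts3, which hold Ctsj, Ctsr and their relatives, GENCODE M21 places 30 genes, of which 12 are cathepsin genes or pseudogenes. The starts and distances given here are those of GENCODE M21. Cts6, whose start lies 197 kb from that of Ctsj, was counted 3 and 12 times in the aged samples and 0 times in the young ones. Ctsq, which lies between Ctsj and Ctsr, was counted 2 times and 1 time in the aged samples and 0 times in the young ones. The other 8, Cts3, Cts7, Cts8, Ctsm, Ctsll3 and 3 pseudogenes, were at 0 in every sample. Reads of the cluster were therefore nearly all from Ctsj and Ctsr, whose starts lie 158 kb apart with Ctsq between them. Of the 18 other genes of the interval 13 were at 0 in every sample. Ctla2a, which encodes a relative of the cathepsin propeptide, was counted 343, 398, 664 and 354 times, and its neighbour Ctla2b 26, 30, 25 and 19 times, so these were read at both ages.

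**Figure D1:**
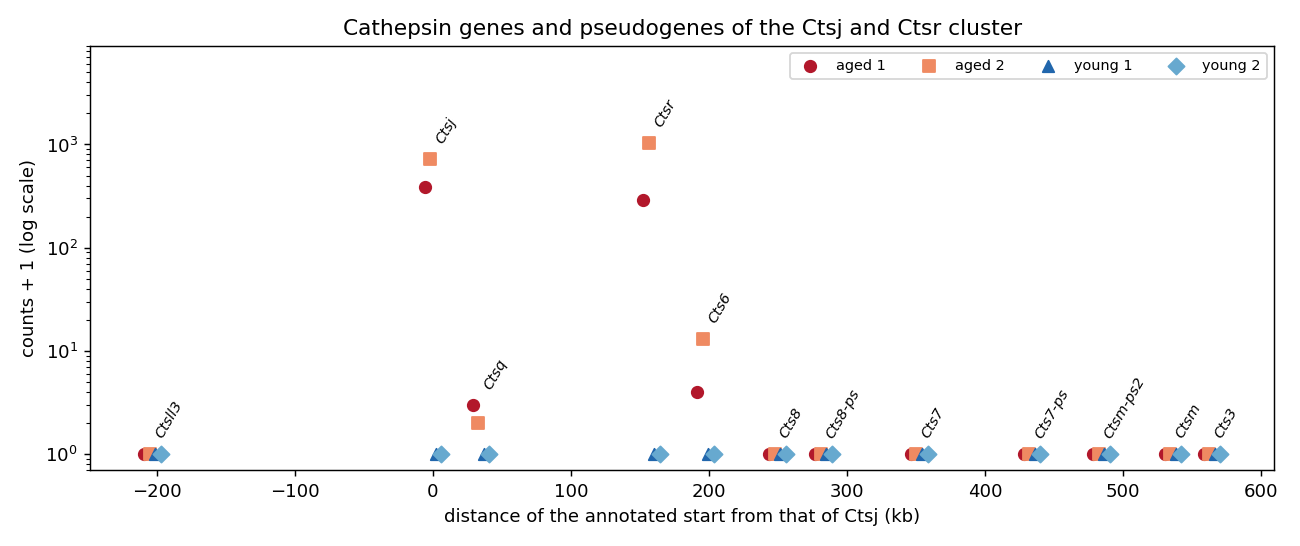
Counts plus 1 (log scale) of the cathepsin genes and pseudogenes of the cluster in each of the 4 samples, against the distance of their annotated start from that of Ctsj in kb; the points of a gene are moved apart sideways. Ctsj and Ctsr stand at 289 counts or more in both aged samples and at 0 in both young samples, and the other genes have 12 counts or fewer.

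The placenta is the tissue in which Ctsj and Ctsr are known to be active, so the libraries were checked for trophoblast genes. Of 19 such markers 12 were at 0 in every sample, among them Prl3d1, Prl3b1, Tpbpa, Synb and Hand1, and the counts of all 19 summed to 32 and 28 in aged MFP and 18 and 25 in young MFP. Most of these were reads of Syna and Ascl2, in samples of both ages. In the aged samples no marker other than Syna and Ascl2 had more than 2 counts.

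The tested gene whose profile over the 4 samples lay nearest to that of Ctsj was Ctsr, and the reverse held for Ctsr. Their distance was 0.669, as the Euclidean distance of log2 CPM centred on each gene's mean, with a prior count of 2. Both were selected on this contrast and were at 0 counts in both young samples, so nothing is read from their nearness. Next to Ctsj were Amtn (2.30), which encodes an enamel protein, Lipm (2.59), a lipase of the epidermis, and Alox12e (2.71), an epidermal lipoxygenase. Next to Ctsr were Ighg2c (2.34), an antibody heavy chain, Amtn (2.47) and Jchain (2.48), the joining chain of antibodies. Amtn was counted 104 and 179 times in the aged samples against 0 and 1 in the young, and Jchain 778 and 10070 times against 49 and 31. These neighbours had low levels in both young samples and were higher in aged replicate 2 than in aged replicate 1, as were Ctsj and Ctsr. They were chosen by their nearness over these same samples, so the shared shape follows from the choice. Each of these profiles rests on 4 samples. Of the 7 epidermal and hair follicle markers, 4 were tested, 3 with a log2 fold change above 0 and 1 below. Ivl, a protein of the cornified envelope, had the largest one. It was counted 53 and 61 times in aged MFP and 4 times and 1 time in the young samples. Krt71 was counted 30 and 33 times against 4 and 7, and Krt1 24 and 15 times against 2 and 11. Krt10, the highest of the list, overlapped between the ages, at 0.978 and 1.40 CPM in aged MFP and 1.24 and 1.19 CPM in the young samples. The summed CPM of these 7 markers was 2.47 and 2.63 in aged MFP and 1.38 and 1.48 in the young samples, and the part of such cells in the reads of Ctsj and Ctsr was not tested.

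The 8 lysosomal members were read at both ages. Ordered by mean level per exon length, in TPM (counts per exon length scaled to the same total in each sample, computed here from the counts and the exon lengths of GENCODE M21), Ctsd came first at 669, followed by Ctsb at 450, Ctsz at 192, Ctss at 88.3, Ctsl at 69.8, Ctsh at 47.5, Ctsc at 39.0 and Ctsk at 36.4. Ctsr and Ctsj came last at 8.38 and 7.04, means that include the young samples at 0. Only Ctsb and Ctsz, among neighbours in this order, had levels whose ranges over the 4 samples did not overlap. Ctss had the largest ratio of highest to lowest level of the 8, 8.35 from 24.5 to 205 TPM, and the next was 2.58 for Ctsk. In the aged samples Ctsj reached 10.6 and 17.5 TPM and Ctsr 8.01 and 25.5 TPM, the highest of which lay within the range of Ctsk, at 21.2 to 54.7 TPM.

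**Figure D2:**
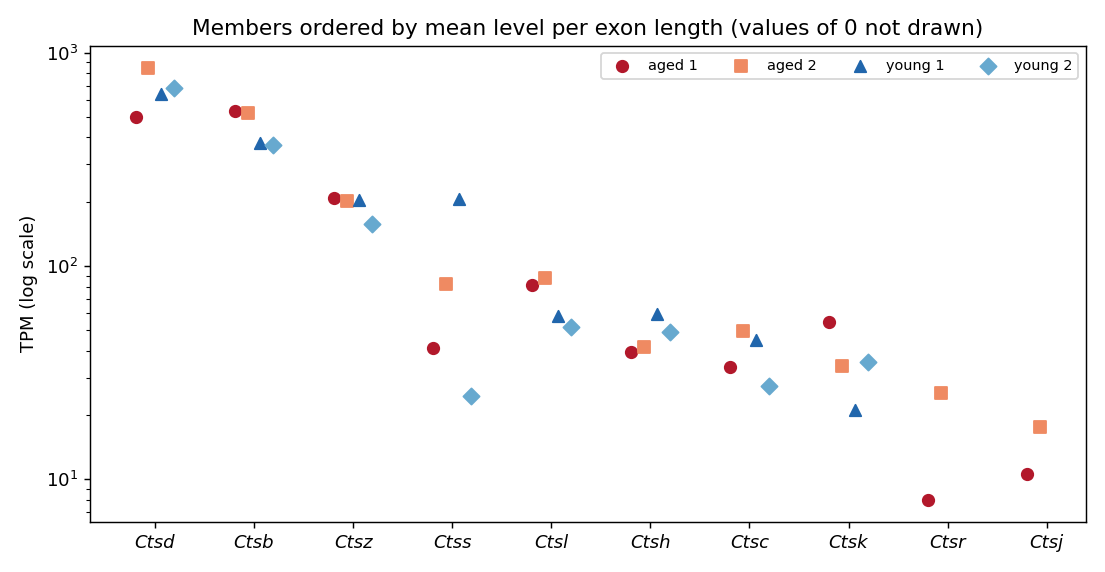
TPM (log scale) of the 10 members in each of the 4 samples, ordered by their mean from left to right; values of 0, those of Ctsj and Ctsr in the young samples, are not drawn. Ctsd and Ctsb stand at 367 TPM or above in every sample, and Ctss spreads over most of the range of the other lysosomal members.

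Among the papain-like endopeptidases, Ctsb and Ctsl were higher in both aged samples than in both young ones. Ctsb (chromosome 14, 63122462 to 63145923, plus strand) stood at 1000 and 1026 CPM in aged MFP and at 737 and 609 CPM in young MFP, which is a log2 fold change of 0.59 (SE 0.21). Ctsl (chromosome 13, 64359337 to 64370890, minus strand) stood at 166 and 184 CPM against 122 and 91.6 CPM, a log2 fold change of 0.71 (SE 0.19). The groups did not overlap for either gene, and the aged replicates lay closer together than the young ones. Ctsl lies on the same strand as Ctsj but 3365 kb from it, and no young sample lacked it. Without any sample in turn the log2 fold change stayed between 0.47 and 0.73 for Ctsb and between 0.54 and 0.93 for Ctsl.

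Ctsk, the collagenase by which osteoclasts break down bone and which is also made in fat, was at 25.8 and 16.7 CPM in aged MFP and 10.3 and 14.7 CPM in young MFP (chromosome 3, 95499256 to 95509362, plus strand). Both aged values lay above both young ones, by a log2 fold change of 0.76 (SE 0.33), but aged replicate 2 and young replicate 2 were close. In TPM the order of those samples turned, with 34.1 in aged replicate 2 and 35.6 in young replicate 2, and with scaling to total counts alone the groups also overlapped. Left-out samples moved the log2 fold change between 0.40, without aged replicate 1, and 1.05, without young replicate 2. Of 5 osteoclast markers, Calcr had between 1 and 10 counts per sample, Oscar between 7 and 18 and Dcstamp between 6 and 15. Ocstamp, the fifth, was counted 71 and 80 times in aged MFP against 28 and 34 times in young MFP, with a log2 fold change of 1.14 (SE 0.37, adjusted p = 0.458 by edgeR). The summed CPM of the list, nearly all from Acp5, a phosphatase also made by macrophages, was 228 and 176 against 192 and 139, and the part of such cells in the level of Ctsk was not tested.

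Ctsd, the aspartic protease and the member with the highest level per length, was at 367 and 648 CPM in aged MFP and 486 and 439 CPM in young MFP (chromosome 7, 142375911 to 142388038, minus strand). The young values lay between the aged ones, so the log2 fold change of 0.13 (SE 0.33) described neither aged sample, and it turned to -0.06 with scaling to total counts alone. Without aged replicate 2 it was -0.33 and without aged replicate 1 it was 0.47.

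Ctsz, a carboxypeptidase, was at 93.4, 93.6, 94.3 and 61.8 CPM, in the order aged replicate 1, aged replicate 2, young replicate 1, young replicate 2 (chromosome 2, 174427493 to 174439039, minus strand). Of these 4 values 3 were alike and young replicate 2 was lower. The log2 fold change of 0.26 (SE 0.24) became -0.0019 without young replicate 2 and 0.60 without young replicate 1. Ctsc, the dipeptidyl peptidase that activates granule proteases of immune cells, was at 61.0, 93.7, 84.5 and 43.5 CPM in the same order (chromosome 7, 88278085 to 88310888, plus strand). Its groups overlapped, its log2 fold change was 0.27 (SE 0.41), and the sign turned without aged replicate 2 (-0.07) or without young replicate 2 (-0.12). Ctsh, an aminopeptidase, was at 55.7, 60.6, 86.6 and 60.2 CPM (chromosome 9, 90054152 to 90076089, plus strand). Here the highest value was that of young replicate 1, young replicate 2 lay between the aged samples, and the log2 fold change was -0.34 (SE 0.22), or -0.05 without young replicate 1.

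Ctss cuts elastin and, in cells that present antigen, the invariant chain of MHC class II. It was at 17.5 and 36.3 CPM in aged MFP and 89.6 and 9.12 CPM in young MFP (chromosome 3, 95526786 to 95556403, plus strand). The young samples held both the highest and the lowest value and differed 9.83-fold, so the aged samples lay between them. The log2 fold change of -0.88 had an SE of 1.12, wider than itself, and was 1.56 without young replicate 1 and -1.72 without young replicate 2. Among the other 7 lysosomal members the young samples differed at most 1.94-fold, in Ctsc.

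Most lymphocyte markers and some dendritic cell and macrophage markers had the order of samples seen for Ctss. The 4 lymphocyte markers summed to 12.5 and 144 CPM in aged MFP and 265 and 1.67 CPM in young MFP, and the 8 dendritic cell markers to 258, 387, 911 and 141 CPM in the same order. Cd3e, of the T cell receptor complex, was counted 154, 891, 10165 and 54 times. Ccr7, a homing receptor of lymph nodes, was at 0.294, 3.03, 105 and 0.366 CPM, and Cd74, the invariant chain itself, at 219, 336, 701 and 94.4 CPM. Ctss, Cd3e and Cd74 thus had the same order of the 4 samples, with young replicate 1 highest and young replicate 2 lowest. The same order was found for 3 of the 4 lymphocyte markers (Cd3e, Cd79a and Ms4a1) and 2 of the 8 dendritic cell markers (Xcr1 and Cd74, which makes up most of their sum). It was also found for 2 of the 10 macrophage markers (Lyz2 and Mpeg1). Young replicate 1 was the highest sample for 3 of the 4, 7 of the 8 and 2 of the 10. Among the lymphocyte and dendritic cell markers, Jchain and Cd209a did not follow. Jchain had 0.598 CPM in young replicate 1 and 113 CPM in aged replicate 2, and Cd209a had 2.63, 2.70, 2.33 and 1.54 CPM. The part of these cells in the level of Ctss was not tested.

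The 10 macrophage markers gave a mixed picture beside it. Their sum was 337 and 458 CPM in aged MFP and 643 and 232 CPM in young MFP, and Lyz2, the lysozyme of myeloid cells and the highest of them in aged replicate 2 and young replicate 1, was at 73.9, 119, 374 and 45.9 CPM. Mrc1, the mannose receptor of tissue macrophages, followed the order of the ages instead, at 87.2, 92.5, 41.8 and 60.7 CPM, and Adgre1, which encodes F4/80, did so with 1390, 1945, 820 and 1073 counts. Of the 10 macrophage markers, 4 (Mrc1, Adgre1, Itgam and Fcgr1) had both aged samples above both young ones, beside 23.3% of all genes tested. The other 6, Lyz2 among them, overlapped between the ages. Ctsb and Ctsl also had both aged samples above both young ones. Granule markers of neutrophils were low, with sums of 0.611, 0.797, 0.854 and 0.515 CPM over 5 genes. The part of macrophages in the members' levels was not tested.

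**Figure D3:**
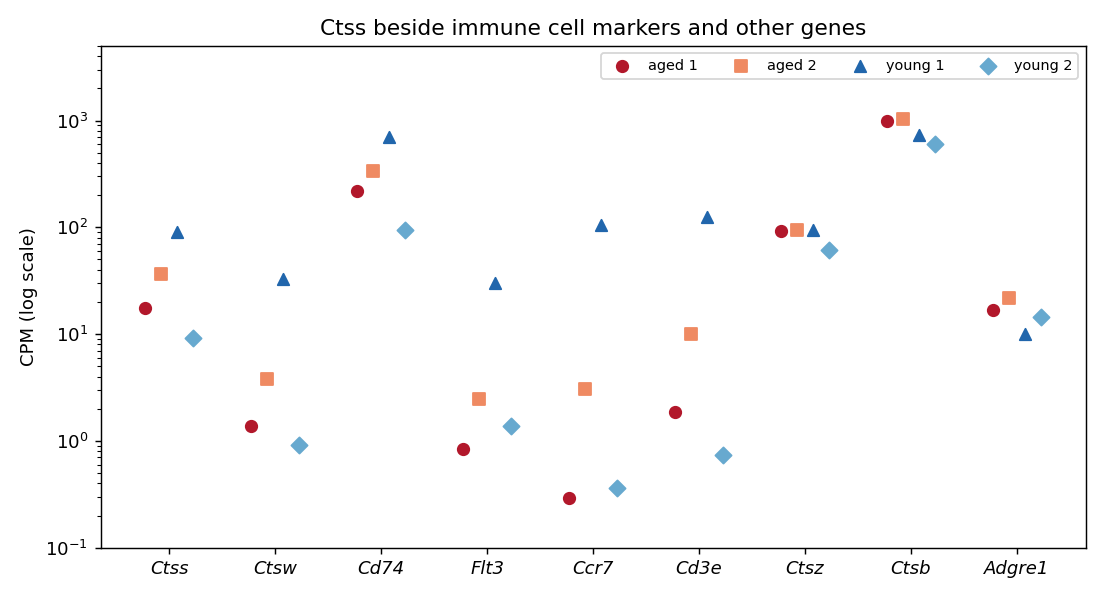
CPM (log scale) of Ctss in each of the 4 samples, beside Ctsw, the dendritic cell markers Cd74, Flt3 and Ccr7, the lymphocyte marker Cd3e, the members Ctsz and Ctsb and the macrophage marker Adgre1. Young replicate 1 is the highest sample for Ctss and the 5 genes next to it, and the lowest for Adgre1.

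Among markers of other tissue parts, those of muscle and adipocytes had higher sums in both aged samples. The 12 skeletal muscle markers summed to 38867 and 61648 CPM in aged MFP and 10020 and 14025 CPM in young MFP. The 8 adipocyte markers summed to 9354 and 7300 against 6234 and 6174 CPM, and the 9 mammary epithelial markers to 1049 and 1048 against 606 and 1338 CPM, where the young samples lay on either side of the aged ones. The 9 fibroblast markers summed to 2725 and 1992 against 4029 and 4707 CPM through the collagens Col1a1, Col1a2 and Col3a1, while 5 others, Pdgfra, Dcn, Lum, Fbln1 and Dpt, had both aged samples above both young ones, and the median log2 fold change of the list was 0.63. All 8 adipocyte markers and 7 of the 9 epithelial ones had counts in every sample, while the milk protein genes Wap and Csn2 did not, Wap being at 0 throughout and Csn2 at 0, 0, 12 and 17 counts. The part of these differences in the members' fold changes was not tested.

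**Figure D4:**
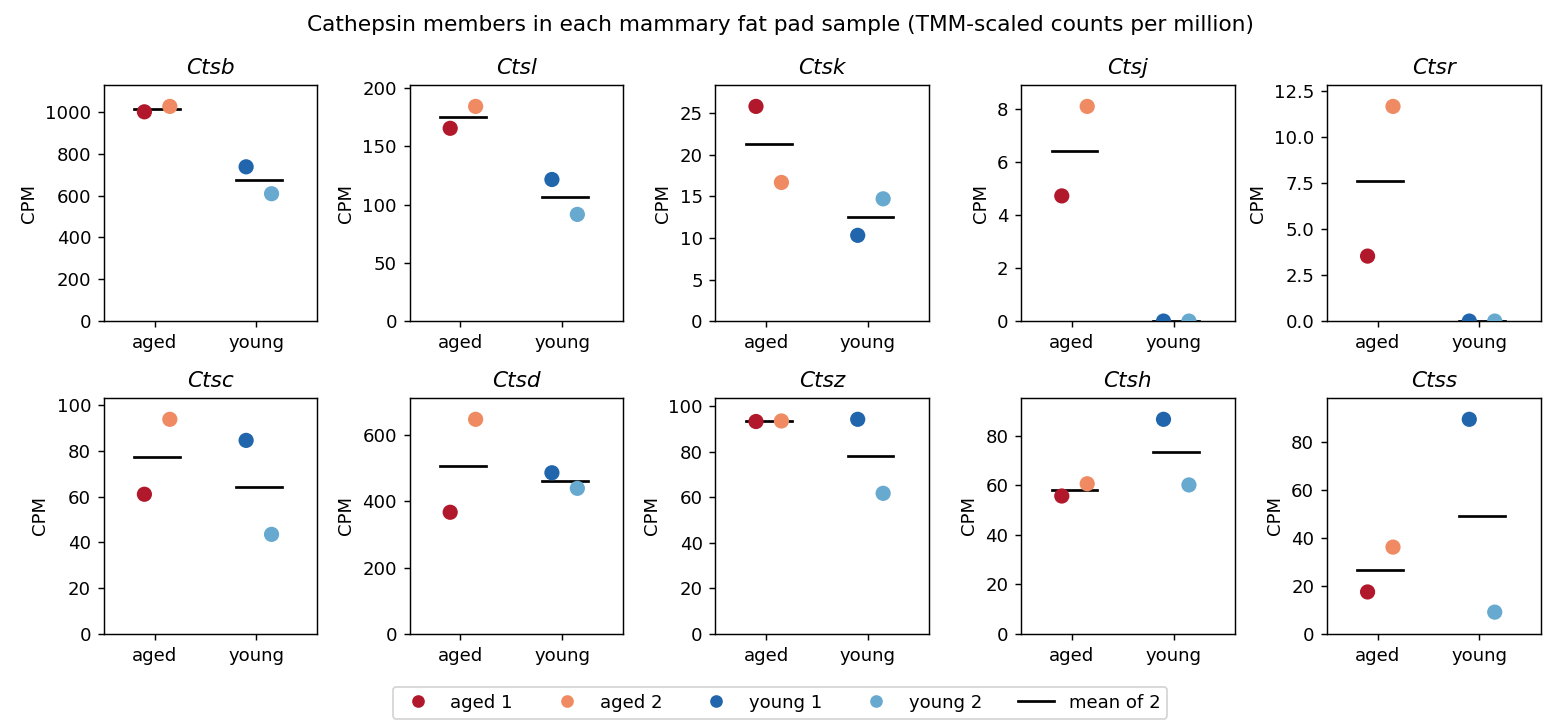
TMM-scaled CPM of each of the 10 members in the 2 aged and the 2 young samples, each on a linear axis from 0, with points for samples and lines for the mean of each pair. The upper row holds the 5 members with both aged samples above both young ones, and the lower row the 5 whose groups overlap.

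Counted over the members, both aged samples lay above both young ones in 5 of 10 (Ctsb, Ctsk, Ctsl, Ctsj and Ctsr), where 23.3% of all genes tested did so. In 0 of 10 both young samples lay above both aged ones, against 22.8% of all genes. The members were picked on this contrast, so nothing is read from the difference. Of the 8 lysosomal members 6 had a log2 fold change above 0 and 2 below, with a median of 0.27 against -0.04 over all genes tested. This median fell to 0.08 with scaling to total counts alone, which moved the median of all genes to -0.22. Without young replicate 1 the first count was 8 of 10 and the median 0.66, while the median was 0.04 without young replicate 2 and 0.09 without aged replicate 2. With edgeR's quasi-likelihood test at an adjusted p under 0.05, 0 of 10 members were called, as were 0% of all genes tested. At an unadjusted p under 0.05, 4 members (Ctsb, Ctsl, Ctsj and Ctsr) were higher and 0 lower in aged MFP, beside 7.24% and 3.31% of all genes. DESeq2 called Ctsj and Ctsr higher and 0 members lower, beside 3.03% and 0.642%. These calls are a description and no test of the members, which were picked on this contrast. Ctsj and Ctsr also passed the filter through the aged samples alone.

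The mean profile of the 8 lysosomal members over the 4 samples was nearest to those of Arl6ip5, at a distance of 0.05, Hcn2, at 0.06, and Gm44441, at 0.06. Arl6ip5, which encodes a membrane protein of the endoplasmic reticulum, was at 57.2, 66.7, 65.2 and 40.9 CPM, with its lowest value in young replicate 2 and the others close together.

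Beyond the members, the other cathepsins, inhibitors and lysosomal genes were tested across all genes. Of the 22485 genes tested, 10558 had a log2 fold change above 0 and 11927 below. At an unadjusted p under 0.05 with edgeR, 7.24% of them were higher and 3.31% lower in aged MFP. Among the other 13 cathepsin genes, 5 passed the filter and 0 were called by edgeR or by DESeq2, 1 having an unadjusted p under 0.05 with edgeR. Ctsa, which encodes the protective protein of lysosomal sialidase, had a log2 fold change of 0.32 (SE 0.23). Ctse, an aspartic cathepsin, had -0.19 (SE 0.37) and Ctso 0.00 (SE 0.34). Ctsf, another papain-like protease, had 0.64 (SE 0.23, adjusted p = 0.467 by edgeR), at 40.9 and 31.1 CPM in aged MFP and 20.6 and 25.6 CPM in young MFP. Ctsw, which is made by cytotoxic lymphocytes, had -2.70 (SE 1.69, adjusted p = 0.563 by edgeR), with counts of 112, 337, 2680 and 68, the order of samples seen for Ctss. Ctsg, of neutrophil granules, had 0, 1, 3 and 0 counts.

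Of 21 cathepsin inhibitors, 6 were tested, 4 with a fold change above 0 and 2 below, with a median log2 fold change of 0.20, and 0 were called by edgeR, 1 having an unadjusted p under 0.05. Cst3, which encodes cystatin C and had the highest level, was at 189 and 178 CPM in aged MFP and 160 and 130 CPM in young MFP, which is a log2 fold change of 0.34 (SE 0.16, adjusted p = 0.523 by edgeR). Cst6, cystatin M of skin, had the largest one, 2.04 (SE 0.56, adjusted p = 0.418 by edgeR and 0.0437 by DESeq2), from 102 and 171 counts against 43 and 18. Cst7, the cystatin of immune cells, had -1.83 (SE 1.84), from 39, 121, 529 and 6 counts, again with young replicate 1 highest and young replicate 2 lowest.

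All 36 other lysosomal hydrolases and activators were tested, 23 with a fold change above 0 and 13 below, with a median of 0.11. EdgeR called 0 of them. At its unadjusted p under 0.05, 5 were higher and 0 lower in aged MFP, beside 7.24% and 3.31% of all genes. Gaa, the acid glucosidase that breaks down glycogen, was at 166 and 186 CPM in aged MFP and 86.9 and 93.0 CPM in young MFP, which is a log2 fold change of 0.97 (SE 0.14, adjusted p = 0.36 by edgeR and 0.00028 by DESeq2). Gm2a, the activator for ganglioside breakdown, was at 208 and 222 CPM against 139 and 111 CPM, a log2 fold change of 0.78 (SE 0.17, adjusted p = 0.398 by edgeR and 0.0372 by DESeq2). For both genes the gap between the ages was wider than that between replicates. Psap, the prosaposin precursor and the list's highest gene, had 0.33 (SE 0.23). Of the lists outside the members, Gaa, Gm2a and Cst6 were the 3 genes that DESeq2 called, all higher in aged MFP. Over all 23039 genes with an adjusted p from DESeq2, 3.03% were called higher and 0.642% lower.

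Of the 21 genes of the lysosomal membrane and its acidification, 17 had a fold change above 0 and 4 below, with a median of 0.15. EdgeR and DESeq2 called 0 of them. At an unadjusted p under 0.05 with edgeR, 3 were higher and 0 lower in aged MFP, beside 7.24% and 3.31% of all genes. Lamp1, the membrane protein with the highest level, was at 339 and 380 CPM in aged MFP and 292 and 238 CPM in young MFP, which is a log2 fold change of 0.44 (SE 0.18, adjusted p = 0.501 by edgeR). Laptm5, of the lysosomes of blood cells, had -1.80 (SE 1.23), at 29.0, 55.7, 274 and 21.9 CPM, and Atp6v0d2, a proton pump subunit of osteoclasts and macrophages, 1.24 (SE 0.39, adjusted p = 0.447 by edgeR), from 35, 35, 16 and 11 counts. Laptm5, Cst7, Ctsw and Ctss thus shared the order of the 4 samples.

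Of the 9 genes of sorting and of the transcription factors of lysosomal genes, 5 had a fold change above 0 and 4 below, with a median of 0.00, and 0 were called by edgeR or by DESeq2, 0 having an unadjusted p under 0.05. Sort1, the sorting receptor with the highest level, had 0.43 (SE 0.19) and Mitf 0.59 (SE 0.31, adjusted p = 0.535 by edgeR). Tfeb and Tfe3, which with Mitf bind CACGTG before lysosomal genes, had 0.25 (SE 0.26) and -0.03 (SE 0.14) and were named here after their values were seen. Over these 4 lists of inhibitors, hydrolases, membrane and sorting genes, 72 genes were tested, 49 with a fold change above 0 and 23 below, with a median of 0.14. At an unadjusted p under 0.05 with edgeR, 9 were higher and 0 lower in aged MFP, beside 7.24% and 3.31% of all genes. In 31 of the 72 both aged samples lay above both young ones, beside 23.3% of all genes tested, and in 3 the reverse held, beside 22.8%.

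**Figure D5:**
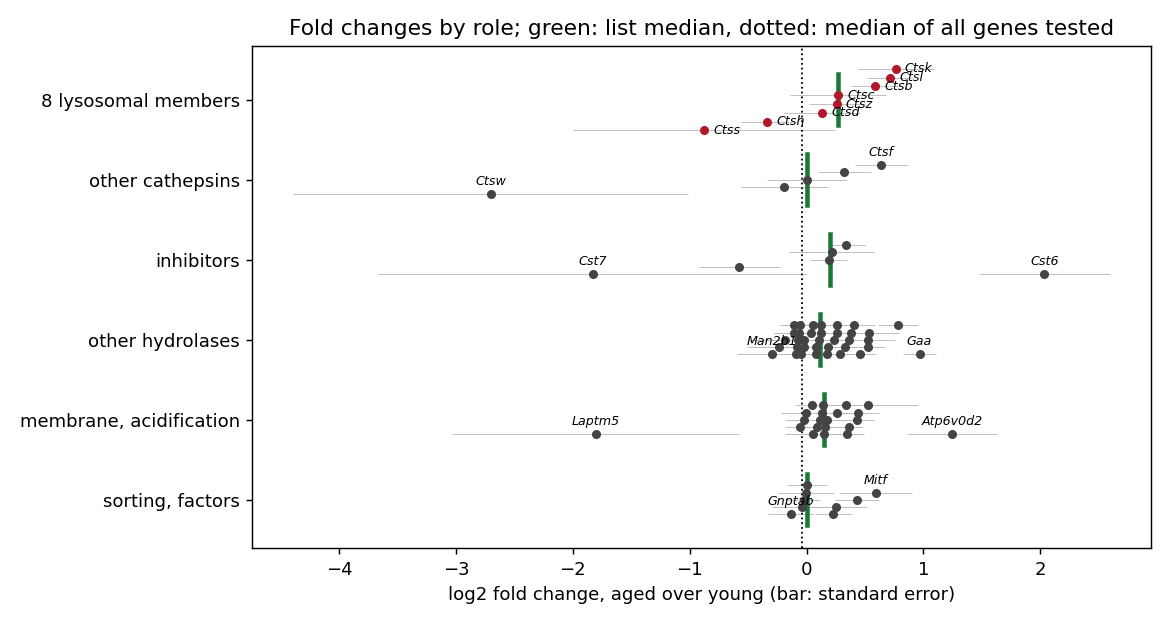
Log2 fold change of aged over young MFP with its standard error for the 8 lysosomal members and for the tested genes of 5 other lists; the vertical bars are list medians and the dotted line is the median of all genes tested, -0.04. The medians lie between 0.00 and 0.27, and Ctss, Ctsw, Cst7 and Laptm5 stand to the left with wide errors.

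Those letters were looked for in the members' promoters. The RefSeq table held 8 of the 10 members, 6 of them lysosomal, and CACGTG was found in those of Ctsd and Ctsl, against 7.15% of all 32851 promoters. They are shown with CACGTG in capitals, on the minus strand of GRCm38.p6. The stretch of Ctsd is at chr7:142387908-142387937, starting at position -98 from its RefSeq start, and that of Ctsl at chr13:64370739-64370768, at position -236.
Ctsd: tcgcccgcgtctCACGTGacccgttgaggg
Ctsl: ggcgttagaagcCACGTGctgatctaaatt
Ctsd held the letters once more at position -245, before its GENCODE start. GENCODE M21 starts both genes further upstream than RefSeq, so both stretches shown lie inside its gene bounds. The genes differed in the comparison, Ctsl with both aged samples above both young ones and Ctsd with the young samples between the aged ones. CACGTG was not among the letters of the Ctsj and Ctsr windows, which says nothing of these factors.

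Reads of some members could be shared with other annotated genes. For Ctsb 12.1% of the 50-base windows of its transcripts also lay in those of Fdft1, the antisense neighbour with which it overlaps by 774 exon bases and which was counted 3982 to 7888 times per sample. For Ctsd 32.4% lay in those of Gm49369, on the same strand and at 0 counts, and for Ctsl 26.3% lay in transcripts of other genes, with the overlapping Gm47123 and Gm49230 at 0 counts. For Ctsk, Ctss and Ctsz the share was 0%, for Ctsh 0.0635% and for Ctsc 0.482%. The libraries keep the strand of the RNA, but whether the counting used it was not given in the sources used here, so reads of Ctsb and Fdft1 may not have been told apart.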

How the data were processed

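The authors deposited counts, the whole-number tally of reads on each gene before any normalization, for 4 total RNA libraries depleted of ribosomal RNA with strand kept. The submitters' processing notes name R 3.6.1, featureCounts and the builds GRCm38 and hg38 without their roles. The aligner, the annotation and the strand setting were not given in the sources used here, and the study's methods state DESeq2 for the MFP. Samples were grouped by the age and replicate in their labels.

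Everything after the counts was computed here with R 4.3.3, edgeR 4.0.16 and DESeq2 1.42.0. Genes were kept by filterByExpr (22485), scaled by TMM and fitted with glmQLFit and glmQLFTest, with no term but age, and p-values were adjusted by Benjamini-Hochberg over all genes and called under 0.05. The SE of a log2 fold change is its size over the square root of F. P-values set the difference between the ages against the spread between 2 samples per age, with the estimate of that spread partly shared across genes. The code was tested on simulated counts. Annotation is from GENCODE M21, which holds 55141 of the 55487 identifiers.

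The members and the lists were chosen with earlier results of these data known. Named were all members, all other cathepsins, in each list of lysosomal genes the called genes, the 2 with the largest absolute log2 fold change and the highest by CPM, the 3 nearest profiles, and the cathepsin neighbours of Ctsj and Ctsr. The other genes, markers included, were named after their values were seen. Alternatives were other scalings and filters, robust dispersion, DESeq2, a replicate block and leaving out each sample. A marker gene of the lymphocyte list is not reported here.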

Additional observations from a re-analysis of the deposited data

How the results depend on the processing

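EdgeR called 0 genes in every setting, with 20244 to 34805 genes tested, and of 22485 genes in the comparison as reported 2371 had an unadjusted p under 0.05, 1627 higher and 744 lower in aged MFP. DESeq2 called 845 genes of 23039, 697 higher (3.03%) and 148 lower (0.642%). Among them were 3 of the pathway genes outside the members, where edgeR called 0, and the cause was not tested. The count of members with both aged samples above both young ones was 5, and ran from 5 to 8 with a sample left out, the 8 without young replicate 1 being reached because Ctsc, Ctss and Ctsz are higher there than in the other young sample. The median log2 fold change of the 8 lysosomal members ran from 0.04 to 0.66 with a sample left out, lowest without young replicate 2. With the replicate block edgeR called 0 genes, 1346 being under an unadjusted p of 0.05. Deviations of samples with the same replicate number correlated at -0.48 across 22485 genes, which cannot decide whether samples were paired. The crossed pairing, added after seeing the data, joins libraries that follow each other in the numbering of the labels. It gave 0 called genes and 2494 under the unadjusted p. The log2 fold change of Ctss was -0.18 with the replicate block. Scaling to total counts alone gave 4 such members and turned the sign of Ctsd. The bounds for Ctsj and Ctsr stayed at 6.52 or above on the log2 scale in every setting. With 2 samples per age and Ctsj and Ctsr at 0 in the young, depth limits their levels there to under the floor and allows no fold beyond a bound.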
